A study of Arabidopsis thaliana with 72 samples.

Results

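The 37 genes described here act in iron uptake, iron storage and the control of both in Arabidopsis thaliana. They were taken by name from 27655 genes in the count table, as a list chosen by gene function with earlier results of these libraries in view and no threshold on a measured value. Of the 37 genes, 32 had enough reads to be tested and 5 did not. The libraries came from hydroponically grown whole seedlings, 10 days old, of wild-type Col-0 and of the mutants sid2-2 and fmo1-1. Each genotype received mock (MS medium) or N-hydroxy-pipecolic acid (NHP, 0.5 mM), a signal of systemic acquired resistance. Seedlings were sampled 15 and 30 min and 3 and 6 h later. There were 3 libraries per group, 24 groups and 72 libraries, and per the study's methods each library was made from 1 well of pooled seedlings, with 1 genotype on a plate. The sid2-2 allele disrupts ICS1, the isochorismate synthase of salicylic acid production, and fmo1-1 disrupts FMO1, the monooxygenase that makes NHP.

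Arabidopsis takes up iron at the root epidermis by acidifying the medium, reducing ferric iron with the reductase FRO2 and importing ferrous iron through the transporter IRT1. The basic helix-loop-helix (bHLH) factor FIT drives both genes together with the Ib bHLH factors bHLH38, bHLH39, bHLH100 and bHLH101. Above these factors stand the IVc bHLH factors ILR3, bHLH104 and bHLH34. The ubiquitin ligase BTS and the repressor PYE restrain the response. Iron moves within the plant bound to nicotianamine and citrate, and excess iron is kept in ferritin and in vacuoles. Pathogens also need iron, and plants are known to shift iron between stores during defense.

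Reads assigned to genes ranged from 19618319 to 28382977 per library (median 23373939.5). Values are counts per 1000000 reads of tested genes (CPM) after TMM scaling, and fold changes are log2 fold changes, log2(FC), of 3 libraries against 3 from edgeR's quasi-likelihood test, adjusted by Benjamini-Hochberg over 21042 genes and called at adjusted p below 0.05. The targeted genes followed the labels, with a median of 10.0 CPM of ICS1 in Col-0, 0.906 CPM in sid2-2 and 9.62 CPM in fmo1-1. FMO1 had medians of 2.49, 1.90 and 0.187 CPM in the same order. All 10 root markers, 9 root hair markers and 5 shoot markers that were checked had reads in each of the 24 groups. Fewer cells of a type and less RNA per cell cannot be told apart in such bulk samples. For the library labelled sid2-2 30 min NHP replicate 3, the title gives 30 min and another label gives 3 h. It was kept at 30 min, where the study's setup table also lists replicate 3 of this group. Several values of that group are also given without this library with conflicting time labels. In the batch column of the study's setup table, no batch held both treatments of Col-0 or of sid2-2 at 15 min, 30 min or 3 h, so treatment and batch cannot be told apart there, and no batch is listed for fmo1-1.

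Of the 37 genes, 4 have no symbol in the sources used here and are named by their identifiers (AT1G47400, AT1G47395, AT2G30766 and AT3G12900). The coding sequences of the first 3 are shown because they are the smallest of the list, with 153, 153 and 144 coding bases, and because reads of the first pair could be split between near-identical copies. AT1G47400 (chromosome 1, 17385818 to 17385970, plus strand) and AT1G47395 (chromosome 1, 17383117 to 17383269, plus strand) differ at 17 of 153 coding bases, which are shown in capitals. These positions are those of the coding bases in TAIR10.1 (RefSeq), and the whole annotated genes of the pair lie 1876 bases apart. AT2G30766 (chromosome 2, 13108068 to 13108211, plus strand) has in capitals the longest run that all 3 share, 9 bases.
AT1G47400: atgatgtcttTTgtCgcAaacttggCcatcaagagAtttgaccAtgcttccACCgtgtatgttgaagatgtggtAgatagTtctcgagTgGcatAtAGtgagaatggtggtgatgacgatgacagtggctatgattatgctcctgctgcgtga
AT1G47395: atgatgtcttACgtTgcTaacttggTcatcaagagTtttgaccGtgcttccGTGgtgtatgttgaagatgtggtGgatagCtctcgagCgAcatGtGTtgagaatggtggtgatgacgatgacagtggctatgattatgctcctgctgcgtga
AT2G30766: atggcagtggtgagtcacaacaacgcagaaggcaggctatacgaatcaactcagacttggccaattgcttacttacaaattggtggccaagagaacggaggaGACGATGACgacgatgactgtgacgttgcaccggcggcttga
The last 55 coding bases were the same in AT1G47400 and AT1G47395, and no run of 100 bases was shared. Of the other related pairs, FRO4 and FRO5 were 92.6% identical over aligned coding bases, bHLH38 and bHLH39 84.8%, and NAS1 and NAS2 84.7%, again with 0 shared runs of 100 bases. How reads that map to several places were counted is not given in the sources used here. Of the 37 genes, 9 overlap a gene on the opposite strand (FRO3, bHLH38, bHLH101, AT2G30766, MYB10, F6'H1, NRAMP1, IREG2 and ILR3), and reads of such pairs cannot be told apart without strand.

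Per kilobase of the longest transcript, the levels of the list spanned a wide range over the 12 Col-0 mock libraries. The ferritin FER1 was highest (median 218 CPM per kilobase), followed by the nicotianamine synthase NAS1 (110), the ferritin FER3 (63.9), ILR3 (55.8) and the phloem transporter OPT3 (45.9). The root uptake genes were near the bottom, with IRT1 at 0.939 CPM per kilobase and FRO2 at 0.436. The 5 untested genes had few reads in any library. bHLH100 had 16 reads in all over 72 libraries, bHLH101 100, MYB72 99, AT3G12900 7 and CYP82C4, a cytochrome P450 of coumarin metabolism, 31, none of them above 8 reads in a library. MYB72, a MYB factor of coumarin secretion under iron deficiency, and AT3G12900 therefore gave no NHP comparison.

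NHP changed some of the iron genes, in both directions. Over 12 comparisons of NHP with mock, 23 of the 32 tested genes were called at least once, with 22 calls higher and 27 lower among 384 tests, and 9 genes were never called. The shares of all tested genes that were called are given in parentheses, higher, lower and in all. In Col-0 the genes of the list called higher and lower were 0 and 2 at 15 min (0.917% and 1.8%, 2.71% in all), 0 and 0 at 30 min (0.779% and 1.24%, 2.02% in all), 2 and 2 at 3 h (1.69% and 2.18%, 3.86% in all) and 2 and 5 at 6 h (3.03% and 3.79%, 6.82% in all). At 30 min in Col-0, 3 of the 32 genes had an unadjusted p below 0.05 in edgeR, and DESeq2 called 0 on 72 libraries and 0 on 6 libraries. In sid2-2 they were 0 and 1 at 15 min (2.45% and 2.43%, 4.88% in all), 0 and 1 at 30 min (0.699% and 1.15%, 1.85% in all), 3 and 4 at 3 h (5.79% and 7.23%, 13% in all) and 5 and 4 at 6 h (4.94% and 6.04%, 11% in all). In fmo1-1 they were 1 and 4 at 15 min (1.29% and 2.66%, 3.95% in all), 0 and 1 at 30 min (0.946% and 1.76%, 2.7% in all), 3 and 1 at 3 h (2.16% and 1.79%, 3.95% in all) and 6 and 2 at 6 h (2.64% and 2.52%, 5.16% in all). Since the list was chosen with results known, nothing is read from these shares. Among all tested genes, NHP and mock libraries that do not overlap were common. Per comparison, 7.28% to 12.1% of all genes were higher and 8.34% to 15.5% lower without overlap, so such a separation alone is no call. The median log2(FC) of the list in Col-0 was -0.08, 0.01, -0.07 and -0.08 from the earliest to the latest time, beside a median of all genes of 0.00 at each.

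**Figure D1:**
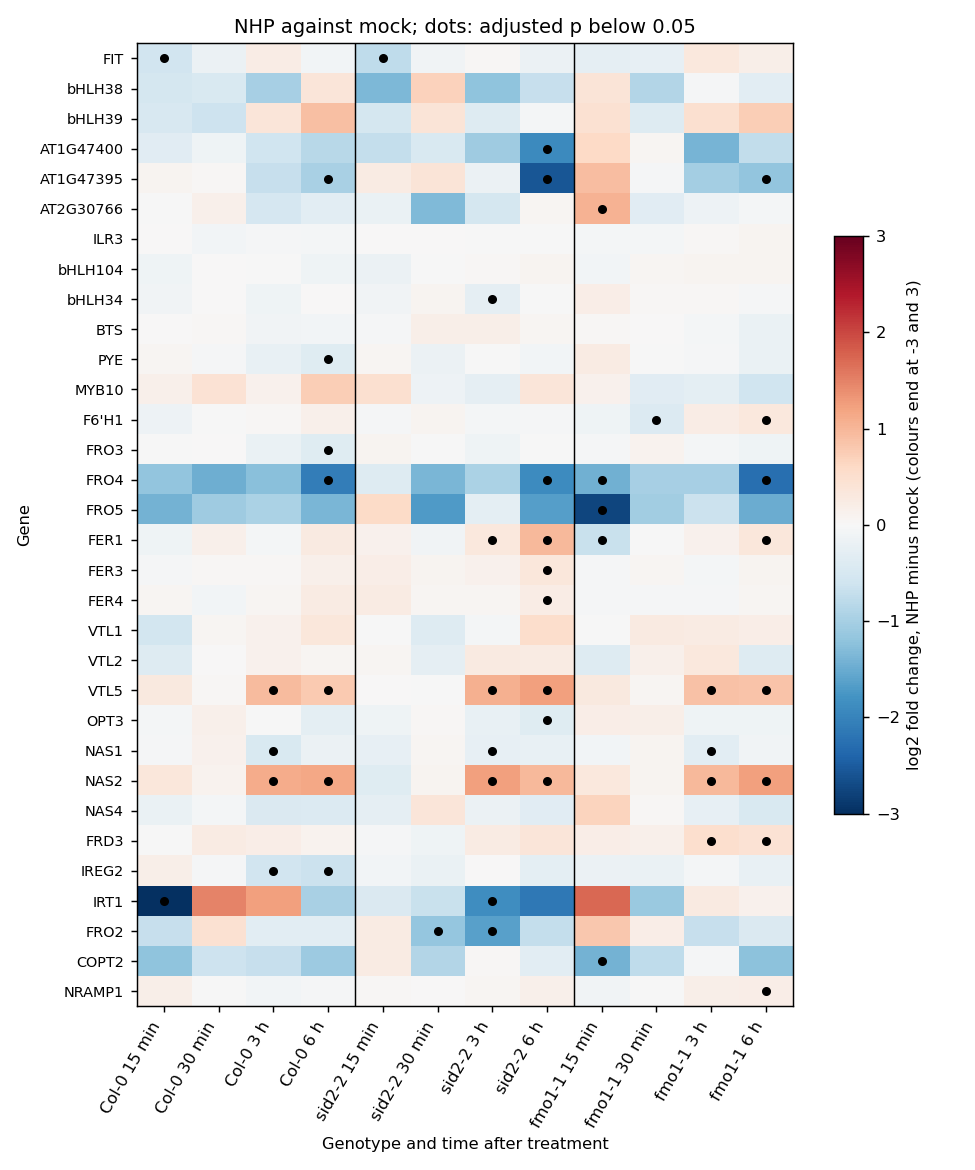
Heat map of log2(FC), NHP minus mock, for the 32 tested genes (rows) in 12 comparisons of genotype and time (columns), with a dot where adjusted p was below 0.05. NAS2 and VTL5 carry dots above 0 at 3 h and 6 h in all 3 genotypes, and FRO4 dots below 0 at 6 h in all 3.

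Root hair cells carry much of the iron uptake of a root, and their markers moved with NHP. Of 9 root hair and epidermis markers, 5 to 7 were called lower and 0 higher in each of the 12 comparisons, with median log2(FC) from -1.22 to -0.78. Their summed level in Col-0 at 15 min was 283 to 358 CPM with mock and 144 to 163 CPM with NHP, and at 6 h it was 290.4 to 315 CPM and 119 to 127 CPM. Root markers of other cell layers were called lower in 0 to 3 of 10, and shoot markers in 0 to 3 of 5. Of all genes, 1.15% to 7.23% were called lower in a comparison. The part of these markers in the values of the uptake genes was not tested.

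IRT1, the main ferrous iron importer of the root, had low and uneven levels. IRT1 in Col-0 stood at 2.57, 3.41 and 2.25 CPM with mock and 0.207, 0.131 and 0.272 CPM with NHP at 15 min, and at 1.86, 2.45 and 1.75 CPM with mock and 2.9, 5.77 and 8.59 CPM with NHP at 30 min. Later IRT1 values in Col-0 were 0.274, 0.849 and 0.199 CPM with mock and 2.23, 0.212 and 0.914 CPM with NHP at 3 h, and 1.03, 0.0431 and 0 CPM with mock and 0.216, 0.0413 and 0.191 CPM with NHP at 6 h. At 15 min every NHP library lay below every mock library and IRT1 fell (log2(FC) -3.30 ± 0.82 (SE), adjusted p = 0.014), a call lost without Col-0 15 min mock replicate 2 or Col-0 15 min NHP replicate 1, 2 or 3 (adjusted p up to 0.0733), and at 30 min every NHP library lay above every mock library without a call (1.48 ± 0.57 (SE), adjusted p = 0.24). IRT1 in sid2-2 stood at 2.97, 6.66 and 3.67 CPM with mock and 3.24, 2.73 and 3.71 CPM with NHP at 15 min, and at 7.21, 9.73 and 6.75 CPM with mock and 6.74, 6.65 and 1.35 CPM with NHP at 30 min. Its sid2-2 values continued with 15.3, 9.05 and 7.96 CPM with mock and 4.53, 2.54 and 1.61 CPM with NHP at 3 h, and 0.359, 1.18 and 0.0415 CPM with mock and 0.119, 0.0371 and 0 CPM with NHP at 6 h. At 3 h the sid2-2 groups did not overlap and IRT1 fell with NHP (-1.86 ± 0.53 (SE), adjusted p = 0.013), a call lost without sid2-2 3 h mock replicate 1 or sid2-2 3 h NHP replicate 2 or 3 (adjusted p up to 0.106) and with DESeq2 on 72 libraries (adjusted p = 0.134). IRT1 in fmo1-1 stood at 0.902, 0.767 and 0.0473 CPM with mock and 1.03, 4.35 and 0.823 CPM with NHP at 15 min, and at 3.82, 1.67 and 1.8 CPM with mock and 2.6, 0.243 and 0.302 CPM with NHP at 30 min. Finally, fmo1-1 gave 0.938, 0.434 and 0.363 CPM with mock and 0.535, 0.887 and 0.725 CPM with NHP at 3 h, and 0.151, 0.0792 and 0.116 CPM with mock and 0.27, 0.122 and 0 CPM with NHP at 6 h, with no call at any time.

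FRO2, the ferric reductase that works with IRT1, was called only in sid2-2. There it measured 2.55, 2.22 and 2.49 CPM with mock and 1.52, 0.937 and 0.623 CPM with NHP at 30 min, and the groups did not overlap (-1.16 ± 0.25 (SE), adjusted p = 0.0034). Without the library with conflicting time labels, the 30 min value was -0.93 and was not called (adjusted p = 0.0836). At 3 h FRO2 in sid2-2 measured 2.85, 2.85 and 2.49 CPM with mock and 0.977, 0.804 and 0.685 CPM with NHP at 3 h, with every NHP library below every mock library (-1.63 ± 0.26 (SE), adjusted p = 5.7e-06). In Col-0 at 3 h it measured 1.28, 1.54 and 1.35 CPM with mock and 1.29, 1.15 and 0.87 CPM with NHP at 3 h (-0.31 ± 0.26 (SE), adjusted p = 0.65), with groups that overlapped. Every FRO2 library with NHP lay below every mock library without a call in Col-0 at 15 min, at 1.45, 1.35 and 1.13 CPM with mock and 0.827, 0.874 and 0.59 CPM with NHP (-0.70 ± 0.27 (SE), adjusted p = 0.19). The same held in fmo1-1 at 3 h, at 1.54, 0.955 and 1.45 CPM with mock and 0.864, 0.887 and 0.616 CPM with NHP (-0.68 ± 0.27 (SE), adjusted p = 0.17), while in Col-0 at 30 min every NHP library lay above every mock library without a call (0.45 ± 0.26 (SE), adjusted p = 0.56). NRAMP1, a plasma membrane manganese and iron importer, rose slightly in fmo1-1 at 6 h, from 59.1, 57.5 and 57.5 CPM to 67.3, 65.6 and 68.3 CPM (0.21 ± 0.06 (SE), adjusted p = 0.033). That call was lost without fmo1-1 6 h mock replicate 1, 2 or 3 or fmo1-1 6 h NHP replicate 1 or 3 (adjusted p up to 0.117).

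FIT, the central bHLH regulator of iron uptake, was lower with NHP at 15 min in Col-0 and sid2-2. FIT in Col-0 stood at 4.36, 4.65 and 4.19 CPM with mock and 3, 2.84 and 2.91 CPM with NHP at 15 min, and at 6.35, 7.12 and 5.96 CPM with mock and 6.08, 5.47 and 5.49 CPM with NHP at 30 min. Later FIT values in Col-0 were 7.62, 7.92 and 7.77 CPM with mock and 9.96, 7.43 and 9.83 CPM with NHP at 3 h, and 4.67, 6.08 and 6.14 CPM with mock and 6.42, 4.79 and 4.84 CPM with NHP at 6 h. The 15 min groups did not overlap and FIT fell (-0.58 ± 0.16 (SE), adjusted p = 0.036), a call lost without any 1 of the 6 libraries (adjusted p up to 0.172), with only the 48 libraries of Col-0 and sid2-2 (adjusted p = 0.0563) and with DESeq2 on 6 libraries (0.0895). FIT in sid2-2 stood at 4.44, 6.04 and 5.81 CPM with mock and 3.19, 3.1 and 3.23 CPM with NHP at 15 min, and at 5.82, 6.4 and 4.71 CPM with mock and 5.63, 5.67 and 4.36 CPM with NHP at 30 min. Its sid2-2 values continued with 7.89, 9.81 and 7.52 CPM with mock and 10.7, 8.75 and 6.45 CPM with NHP at 3 h, and 5.34, 6.48 and 7.34 CPM with mock and 5.59, 6.01 and 5.33 CPM with NHP at 6 h. The fall at 15 min in sid2-2 (-0.75 ± 0.16 (SE), adjusted p = 0.0029) was called without any 1 of its 6 libraries too. FIT in fmo1-1 stood at 4.06, 3.55 and 2.98 CPM with mock and 3.05, 3.31 and 2.39 CPM with NHP at 15 min, and at 6.1, 5.74 and 6.49 CPM with mock and 5.02, 5.21 and 5.23 CPM with NHP at 30 min. Finally, fmo1-1 gave 7.89, 8.64 and 5.71 CPM with mock and 9.55, 9.17 and 8.88 CPM with NHP at 3 h, and 4.43, 4.39 and 5.32 CPM with mock and 4.94, 5.92 and 5.12 CPM with NHP at 6 h. At 15 min the fmo1-1 groups overlapped (-0.27 ± 0.17 (SE), adjusted p = 0.47).

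The Ib bHLH factors, partners of FIT that are known to rise steeply when iron runs short, were scarce in these seedlings. bHLH39 in Col-0 stood at 0.871, 0.953 and 0.443 CPM with mock and 0.551, 0.525 and 0.454 CPM with NHP at 15 min, and at 1.98, 2.45 and 3.13 CPM with mock and 2.12, 1 and 1.66 CPM with NHP at 30 min. Later bHLH39 values in Col-0 were 0.502, 0.525 and 0.717 CPM with mock and 0.72, 0.764 and 0.87 CPM with NHP at 3 h, and 0.114, 0.345 and 0.399 CPM with mock and 0.819, 0.454 and 0.534 CPM with NHP at 6 h. The Col-0 groups did not overlap at 3 h and at 6 h, where NHP was higher without a call (at 6 h 0.90 ± 0.35 (SE), adjusted p = 0.11). Of all genes, 9.45% at 3 h and 12.1% at 6 h were higher without overlap. bHLH39 in sid2-2 stood at 0.775, 1.41 and 1.48 CPM with mock and 0.898, 0.94 and 0.647 CPM with NHP at 15 min, and at 3.12, 2.94 and 3.91 CPM with mock and 3.14, 4.36 and 5.6 CPM with NHP at 30 min. Its sid2-2 values continued with 0.407, 0.446 and 0.684 CPM with mock and 0.266, 0.268 and 0.587 CPM with NHP at 3 h, and 0.314, 0.219 and 0.207 CPM with mock and 0.119, 0.297 and 0.285 CPM with NHP at 6 h. No sid2-2 comparison of bHLH39 was called. bHLH39 in fmo1-1 stood at 0.721, 0.623 and 0.852 CPM with mock and 1.03, 1.31 and 0.782 CPM with NHP at 15 min, and at 1.74, 2.89 and 2.18 CPM with mock and 2.06, 1.27 and 1.81 CPM with NHP at 30 min. Finally, fmo1-1 gave 0.426, 0.347 and 0.181 CPM with mock and 0.37, 0.481 and 0.58 CPM with NHP at 3 h, and 0.151, 0.158 and 0.231 CPM with mock and 0.386, 0.284 and 0.413 CPM with NHP at 6 h, again with no call. In all 3 genotypes the bHLH39 mock libraries at 30 min lay above those of every other time.

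bHLH38, the neighbour of bHLH39 on chromosome 3, had few reads in any library. bHLH38 in Col-0 stood at 0, 0.278 and 0.322 CPM with mock and 0.207, 0.0874 and 0.0454 CPM with NHP at 15 min, and at 0.124, 0.193 and 0.417 CPM with mock and 0.23, 0 and 0.218 CPM with NHP at 30 min. Later bHLH38 values in Col-0 were 0.183, 0.0808 and 0.0796 CPM with mock and 0, 0 and 0.0435 CPM with NHP at 3 h, and 0.038, 0.0863 and 0.0399 CPM with mock and 0.172, 0 and 0.114 CPM with NHP at 6 h. Most of these values stand for a few reads per library. bHLH38 in sid2-2 stood at 0.215, 0.677 and 0.371 CPM with mock and 0, 0.235 and 0.0862 CPM with NHP at 15 min, and at 0.913, 0.867 and 0.266 CPM with mock and 0.6, 1.36 and 1.5 CPM with NHP at 30 min. Its sid2-2 values continued with 0.244, 0.0446 and 0.146 CPM with mock and 0.0444, 0 and 0 CPM with NHP at 3 h, and 0.0897, 0.0876 and 0.0415 CPM with mock and 0, 0.0371 and 0 CPM with NHP at 6 h. bHLH38 was not called with NHP in any comparison. bHLH38 in fmo1-1 stood at 0.135, 0.0479 and 0.0947 CPM with mock and 0.0859, 0.192 and 0.165 CPM with NHP at 15 min, and at 0.54, 0.815 and 0.88 CPM with mock and 0.269, 0.341 and 0.503 CPM with NHP at 30 min. Finally, fmo1-1 gave 0, 0.0434 and 0 CPM with mock and 0.0411, 0 and 0 CPM with NHP at 3 h, and 0.0757, 0 and 0.0386 CPM with mock and 0, 0 and 0.0413 CPM with NHP at 6 h. bHLH100 did not exceed 0.120 CPM in any of 72 libraries, and bHLH101 did not exceed 0.330 CPM.

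Of the 3 short genes, the near-identical pair was called lower with NHP at 6 h. AT1G47395 in Col-0 stood at 2.58, 2.03 and 2.11 CPM with mock and 0.948, 1.2 and 1.14 CPM with NHP at 6 h, and it fell (-0.98 ± 0.32 (SE), adjusted p = 0.04997). That call was at the threshold and was lost without any 1 of the 6 libraries (adjusted p up to 0.188). Nor did it pass with RLE scaling (adjusted p = 0.0524), without a filter (0.0601), with a replicate block (0.0638), with the 48 libraries of Col-0 and sid2-2 (0.0784) or with DESeq2 on 72 libraries (0.1004). In sid2-2 AT1G47395 fell from 0.583, 1.84 and 0.912 CPM to 0.119, 0.148 and 0.0813 CPM (-2.56 ± 0.44 (SE), adjusted p = 1.9e-05). In fmo1-1 AT1G47395 fell from 1.89, 1.62 and 2.24 CPM to 1.12, 0.771 and 0.495 CPM (-1.18 ± 0.34 (SE), adjusted p = 0.023), a call lost without fmo1-1 6 h mock replicate 1 or 3 or fmo1-1 6 h NHP replicate 2 or 3 (adjusted p up to 0.162). The groups of AT1G47395 at 6 h did not overlap in any genotype. Its near copy AT1G47400 fell in sid2-2 from 0.717, 0.964 and 0.373 CPM to 0.198, 0.0742 and 0.0813 CPM (-1.92 ± 0.46 (SE), adjusted p = 0.0028). In Col-0 AT1G47400 stood at 1.9, 1.81 and 1.91 CPM with mock and 1.08, 1.2 and 0.8 CPM with NHP at 6 h, also without overlap but not called (-0.83 ± 0.34 (SE), adjusted p = 0.14). In fmo1-1 AT1G47400 stood at 0.871, 1.39 and 0.81 CPM with mock and 0.964, 0.324 and 0.413 CPM with NHP at 6 h, with groups that overlapped.

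AT2G30766 followed another course. With NHP at 6 h it was not called in any genotype, at 7.03, 5.57 and 7.46 CPM with mock and 6.73, 3.96 and 5.49 CPM with NHP at 6 h in Col-0 and 0.852, 1.27 and 0.788 CPM with mock and 0.793, 0.928 and 1.34 CPM with NHP at 6 h in sid2-2. In fmo1-1 AT2G30766 stood at 4.43, 4.51 and 5.32 CPM with mock and 4.9, 4.22 and 4.58 CPM with NHP at 6 h. AT2G30766 rose in fmo1-1 at 15 min, from 0.541, 1.15 and 1.23 CPM to 1.89, 1.92 and 2.47 CPM (1.05 ± 0.31 (SE), adjusted p = 0.04), a call lost without any 1 of the 6 libraries (adjusted p up to 0.211). This was the only call of the 3 short genes with NHP before 6 h. At the other times AT1G47400 ranged over all libraries from 0 to 0.674 CPM and AT1G47395 from 0.144 to 1.14 CPM. AT2G30766 ranged there from 0.178 to 2.47 CPM.

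**Figure D2:**
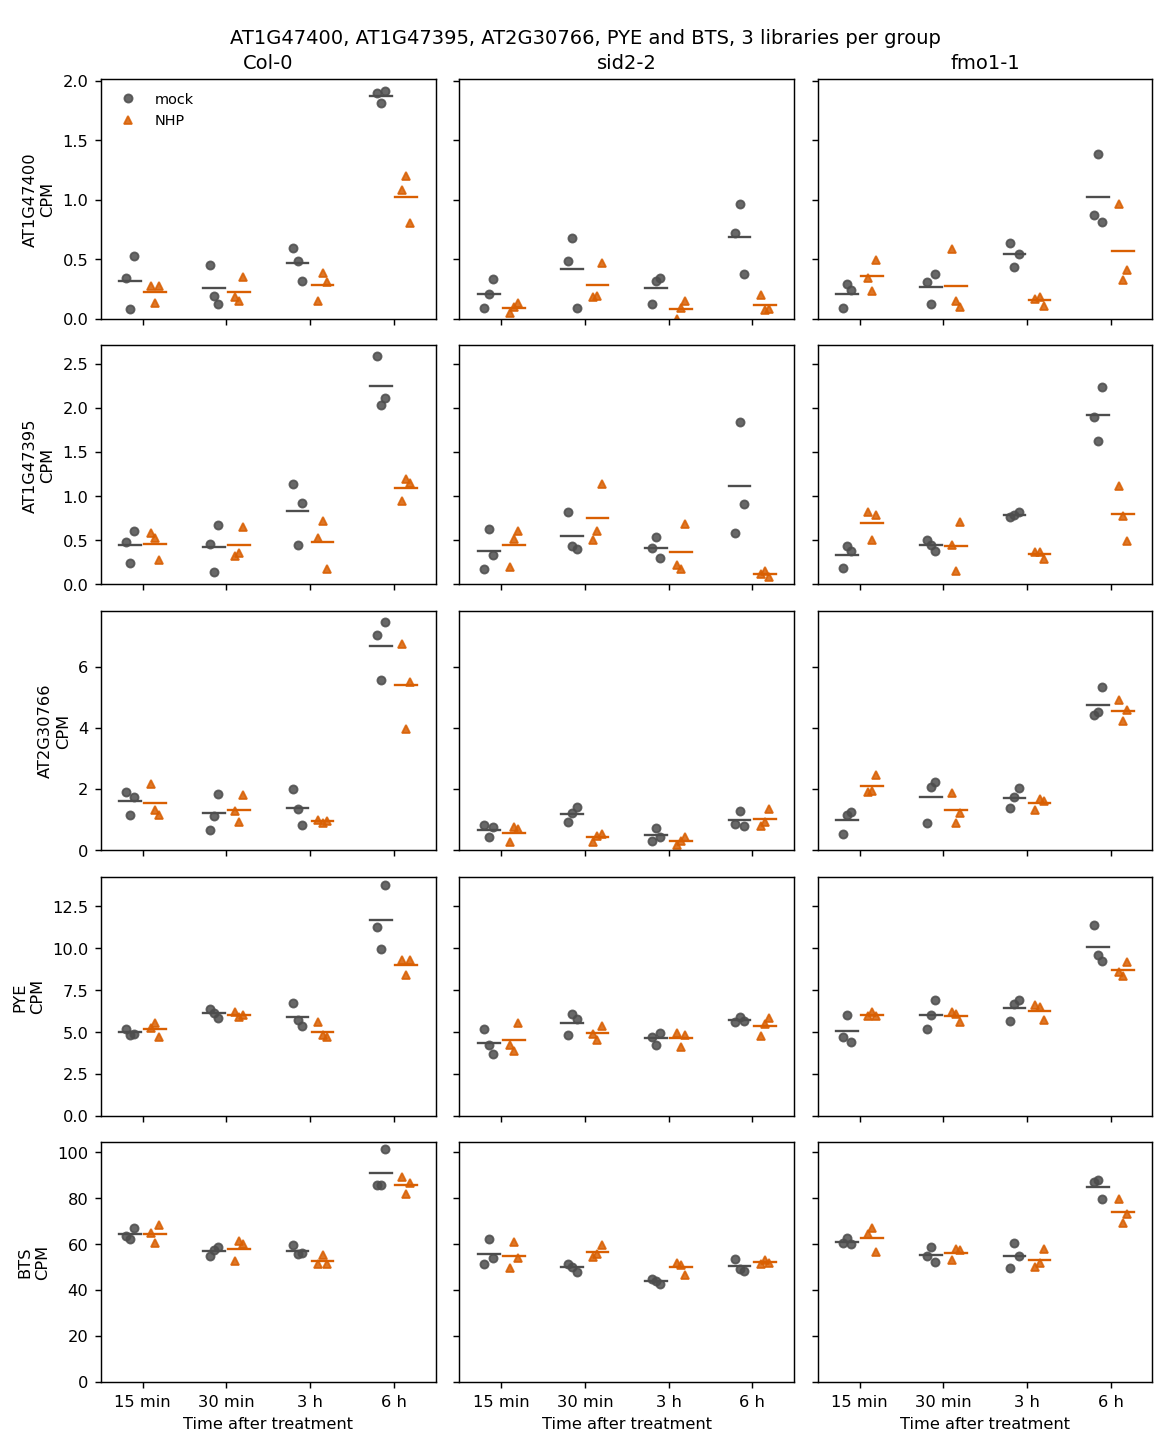
CPM of AT1G47400, AT1G47395, AT2G30766, PYE and BTS (rows) in Col-0, sid2-2 and fmo1-1 (columns) by time after treatment, with 1 point per library for mock and NHP and a line at each group mean. Mock levels at 6 h stood above those at 15 min in Col-0 and fmo1-1 for all 5 genes, and AT1G47395 with NHP stood below mock at 6 h in each genotype.

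PYE, a bHLH repressor of iron genes, fell with NHP in Col-0 at 6 h, from 11.3, 9.97 and 13.8 CPM to 9.31, 8.42 and 9.3 CPM (-0.37 ± 0.11 (SE), adjusted p = 0.027). The call was lost without Col-0 6 h mock replicate 1 or 3 or Col-0 6 h NHP replicate 2 or 3 (adjusted p up to 0.296) and with DESeq2 on 6 libraries (adjusted p = 0.1095). BTS, the ubiquitin ligase that restrains the iron deficiency response, was not called with NHP at any time, with log2(FC) from -0.20 to 0.18 over the 12 comparisons. Of the IVc bHLH factors, ILR3 stayed between -0.08 and 0.08, and bHLH104 between -0.17 and 0.09, without a call. bHLH34 was called lower in sid2-2 at 3 h (-0.28 ± 0.10 (SE), adjusted p = 0.04986), with 12.4, 13.1 and 13.4 CPM under mock and 9.42, 11.6 and 11 CPM under NHP. This call was at the threshold and was lost without any 1 of the 6 libraries (adjusted p up to 0.345) and in all 6 alternative fits (adjusted p from 0.0501 to 0.278).

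OPT3, which loads iron into the phloem and relays the shoot's iron state to the root, fell with NHP in sid2-2 at 6 h. Its libraries stood at 148, 166 and 135 CPM with mock and 113, 122 and 112 CPM with NHP at 6 h, without overlap (-0.37 ± 0.10 (SE), adjusted p = 0.0088). The call was lost without sid2-2 6 h mock replicate 2 or sid2-2 6 h NHP replicate 3 (adjusted p up to 0.121). In Col-0 and fmo1-1 OPT3 was not called, with 201, 208 and 224 CPM with mock and 195, 164 and 160.5 CPM with NHP at 6 h in Col-0 (-0.29 ± 0.10 (SE), adjusted p = 0.065).

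FRO4, FRO5 and COPT2 are known as copper-linked genes. FRO4 and FRO5 are reductases of copper at the root surface, and COPT2 is a copper importer that also responds to iron. FRO4 fell at 6 h in all 3 genotypes. It stood at 5.77, 12.5 and 13.6 CPM with mock and 2.8, 1.98 and 2.52 CPM with NHP at 6 h in Col-0 (-2.08 ± 0.46 (SE), adjusted p = 0.0017). In sid2-2 FRO4 stood at 11.6, 13 and 13.9 CPM with mock and 4.4, 2.56 and 3.33 CPM with NHP at 6 h (-1.88 ± 0.43 (SE), adjusted p = 0.0019). In fmo1-1 FRO4 stood at 9.92, 12.4 and 13.6 CPM with mock and 2.12, 2.43 and 2.77 CPM with NHP at 6 h (-2.26 ± 0.45 (SE), adjusted p = 0.00058). No NHP library reached the lowest mock library in any of these groups, and log2(FC) of FRO4 was below 0 in all 12 comparisons. As the mean over the 4 times, FRO4 fell by 1.5 ± 0.21 (SE), adjusted p = 3.5e-07 in Col-0 and by 1.42 ± 0.21 (SE), adjusted p = 1e-06 in fmo1-1. In sid2-2 FRO4 fell by 1.15 ± 0.21 (SE), adjusted p = 6.5e-05 (-1.15, adjusted p = 0.00017 without the library with conflicting time labels).

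At 15 min the same genes fell in fmo1-1. FRO5 went from 14, 10.3 and 9.56 CPM to 2.49, 1.77 and 0.576 CPM (-2.75 ± 0.56 (SE), adjusted p = 0.0011). FRO4 went from 22.4, 18.3 and 16 CPM to 8.63, 6.81 and 5.43 CPM (-1.43 ± 0.38 (SE), adjusted p = 0.02), and COPT2 from 9.02, 8.67 and 6.82 CPM to 4.08, 2.73 and 2.22 CPM (-1.42 ± 0.37 (SE), adjusted p = 0.015). The call of FRO4 was lost without fmo1-1 15 min mock replicate 1 or fmo1-1 15 min NHP replicate 2 or 3 (adjusted p up to 0.0838), and that of COPT2 without fmo1-1 15 min mock replicate 2 or fmo1-1 15 min NHP replicate 2 or 3 (adjusted p up to 0.0809). In Col-0 at 15 min the groups of all 3 genes also stood apart without a call, beside 10.7% of all genes lower without overlap. FRO4 in Col-0 stood at 17.3, 18.2 and 15.2 CPM with mock and 6.41, 8 and 7.99 CPM with NHP at 15 min (-1.18 ± 0.38 (SE), adjusted p = 0.096). COPT2 in Col-0 stood at 6.24, 7.46 and 6.24 CPM with mock and 2.2, 3.37 and 3 CPM with NHP at 15 min (-1.21 ± 0.38 (SE), adjusted p = 0.074). In sid2-2 COPT2 overlapped, at 11.3, 11.5 and 9.31 CPM with mock and 14.9, 10.9 and 12.6 CPM with NHP at 15 min. As the mean over the 4 times COPT2 fell in Col-0 (-0.90 ± 0.20 (SE), adjusted p = 0.00095) and in fmo1-1 (-0.86 ± 0.20 (SE), adjusted p = 0.0019), and FRO5 likewise (-1.20 ± 0.32 (SE), adjusted p = 0.008 and -1.48 ± 0.32 (SE), adjusted p = 0.00093).

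Single libraries stood apart for these 3 genes. At 30 min NHP replicate 2 was the highest NHP library of each genotype for FRO4, FRO5 and COPT2. For FRO4 the NHP libraries at 30 min read 2.17, 7.23 and 1.44 CPM in Col-0, 1.11, 8.38 and 4.57 in sid2-2 and 4.16, 10.2 and 2.11 in fmo1-1. Col-0 mock replicate 1 was the lowest mock library at 3 h and at 6 h, with FRO4 at 7.53, 17.4 and 20.3 CPM at 3 h. Of 10 other copper genes, none was called with NHP in Col-0 at any time by edgeR (0 to 1 of them at an unadjusted p below 0.05 at each time) or by DESeq2 on 72 libraries, and DESeq2 on 6 libraries called 3 higher and 1 lower at 15 min. At 1 or more times 6 of the 10 were called in sid2-2 and 6 in fmo1-1, beside 11.1% of all genes higher and 12.6% lower in sid2-2 and 5.32% and 5.83% in fmo1-1. In sid2-2 at 30 min the copper superoxide dismutase CSD2 (1.21, adjusted p = 0.003) and its copper chaperone CCS (1.07, adjusted p = 0.0054) rose, and neither was called without sid2-2 30 min NHP replicate 1 (0.28 and 0.29). Both were called without the library with conflicting time labels (adjusted p = 0.00026 and 0.00087). In fmo1-1 at 15 min CSD2 rose (1.07, adjusted p = 0.0068), a call lost without fmo1-1 15 min NHP replicate 3 (adjusted p = 0.0513). Iron and copper contents are not part of these data.

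**Figure D3:**
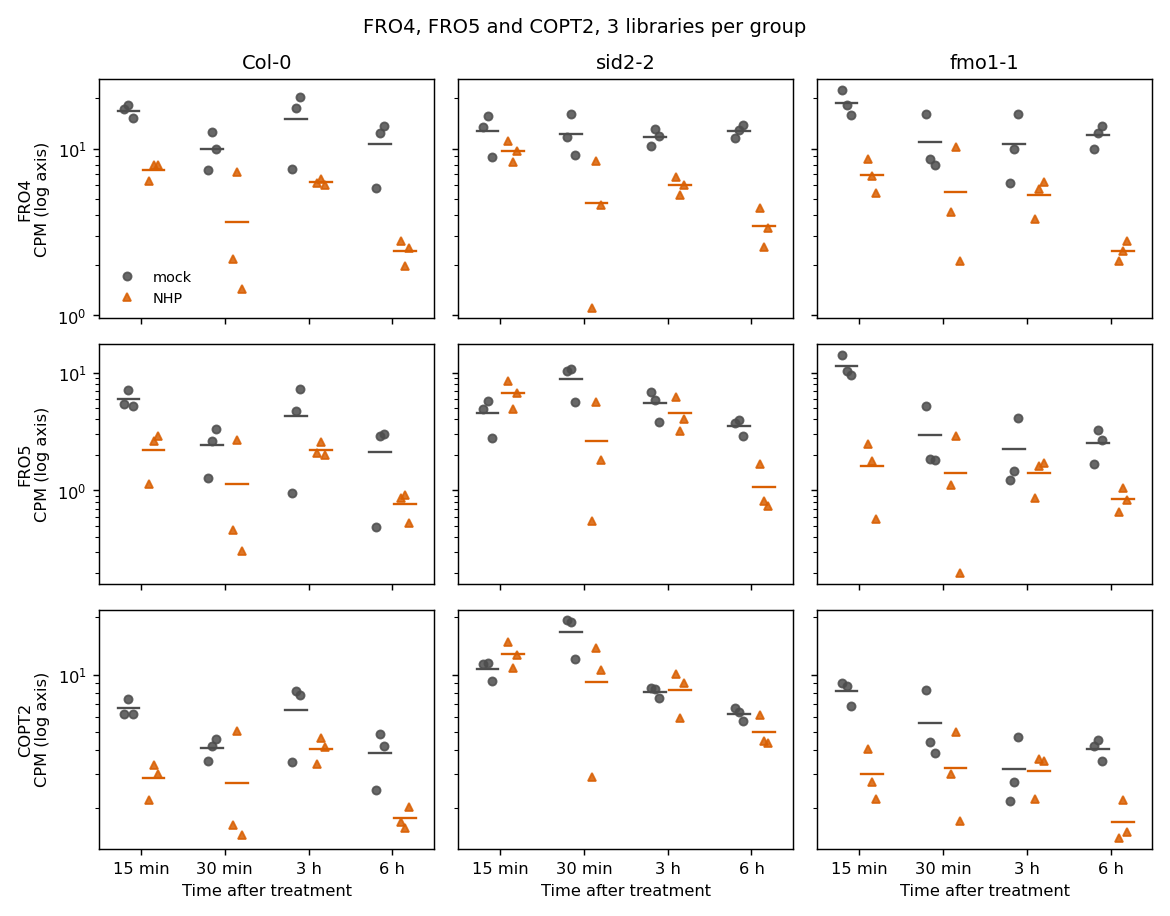
CPM of FRO4, FRO5 and COPT2 (rows, log axis) in Col-0, sid2-2 and fmo1-1 (columns) by time after treatment, with 1 point per library for mock and NHP and a line at each group mean. At 6 h the FRO4 libraries with NHP (1.98 to 4.40 CPM) lie below the mock libraries (5.77 to 13.9 CPM) in all 3 genotypes.

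NAS2 and VTL5 rose with NHP at 3 h and at 6 h in every genotype. Nicotianamine synthases make nicotianamine, which chelates iron and other metals for transport, and VTL5 belongs to the vacuolar iron transporter-like proteins. NAS2 in Col-0 stood at 2.15, 2.02 and 2.35 CPM with mock and 6.06, 4.24 and 3.92 CPM with NHP at 3 h (1.1 ± 0.23 (SE), adjusted p = 0.00086). NAS2 at 6 h in Col-0 stood at 2.66, 2.98 and 1.68 CPM with mock and 4.96, 5.66 and 5.95 CPM with NHP (1.16 ± 0.22 (SE), adjusted p = 0.00015). In both comparisons each NHP library lay above each mock library. NAS2 in sid2-2 stood at 1.63, 2.23 and 1.37 CPM with mock and 5.37, 4.29 and 2.88 CPM with NHP at 3 h (1.23 ± 0.24 (SE), adjusted p = 0.00032). NAS2 at 6 h in sid2-2 stood at 1.21, 2.76 and 2.98 CPM with mock and 4.12, 4.93 and 4.8 CPM with NHP (0.96 ± 0.23 (SE), adjusted p = 0.0023), a call lost without sid2-2 6 h mock replicate 1 (adjusted p = 0.0504). NAS2 in fmo1-1 stood at 1.75, 1.82 and 1.95 CPM with mock and 4.07, 3.03 and 4.02 CPM with NHP at 3 h (0.98 ± 0.24 (SE), adjusted p = 0.0072), a call lost without fmo1-1 3 h mock replicate 1 (adjusted p = 0.0515). NAS2 at 6 h in fmo1-1 stood at 2.2, 1.7 and 1.39 CPM with mock and 4.28, 4.42 and 4.04 CPM with NHP (1.23 ± 0.23 (SE), adjusted p = 0.00018). At 15 and 30 min NAS2 was not called in any genotype, with log2(FC) from -0.37 to 0.34.

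VTL5 in Col-0 stood at 10.1, 8.65 and 8.36 CPM with mock and 18.3, 19.1 and 15.4 CPM with NHP at 3 h (0.96 ± 0.17 (SE), adjusted p = 0.0001). VTL5 at 6 h in Col-0 stood at 13.5, 12.4 and 10.5 CPM with mock and 23.2, 17.9 and 21.4 CPM with NHP (0.78 ± 0.16 (SE), adjusted p = 0.00074). VTL5 in sid2-2 stood at 7.93, 4.37 and 8.54 CPM with mock and 13.8, 18.4 and 11.8 CPM with NHP at 3 h (1.07 ± 0.18 (SE), adjusted p = 4.3e-05). The highest mock library stayed below the lowest NHP library in each case. VTL5 at 6 h in sid2-2 stood at 11.5, 7.76 and 12.3 CPM with mock and 21.9, 24.5 and 28.3 CPM with NHP (1.23 ± 0.16 (SE), adjusted p = 1.8e-07). VTL5 in fmo1-1 stood at 11.6, 8.24 and 8.48 CPM with mock and 20.7, 15.4 and 16.2 CPM with NHP at 3 h (0.87 ± 0.17 (SE), adjusted p = 0.00046). VTL5 at 6 h in fmo1-1 stood at 9.66, 12.6 and 9.18 CPM with mock and 17.5, 18 and 21.8 CPM with NHP (0.87 ± 0.16 (SE), adjusted p = 0.00025). All 6 of these calls of VTL5 held without any 1 of their libraries. Its relatives VTL1 and VTL2 of the same family were not called with NHP at any time.

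The other nicotianamine synthases took other courses. NAS1 fell at 3 h in all 3 genotypes. It went from 242, 228 and 216 CPM to 175, 163 and 159.6 CPM in Col-0 (-0.46 ± 0.08 (SE), adjusted p = 2.2e-05). In fmo1-1 NAS1 went from 231, 219.9 and 208 CPM to 176, 181 and 171 CPM (-0.32 ± 0.08 (SE), adjusted p = 0.0065), a call lost without fmo1-1 3 h mock replicate 1 (adjusted p = 0.0575). In sid2-2 NAS1 went from 133, 128 and 144 CPM to 124, 106 and 114 CPM (-0.24 ± 0.08 (SE), adjusted p = 0.036), a call lost without sid2-2 3 h mock replicate 1 or 3 or sid2-2 3 h NHP replicate 2 or 3 (adjusted p up to 0.232). The groups did not overlap in any of the 3. NAS4 was not called, with log2(FC) from -0.46 to 0.67.

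**Figure D4:**
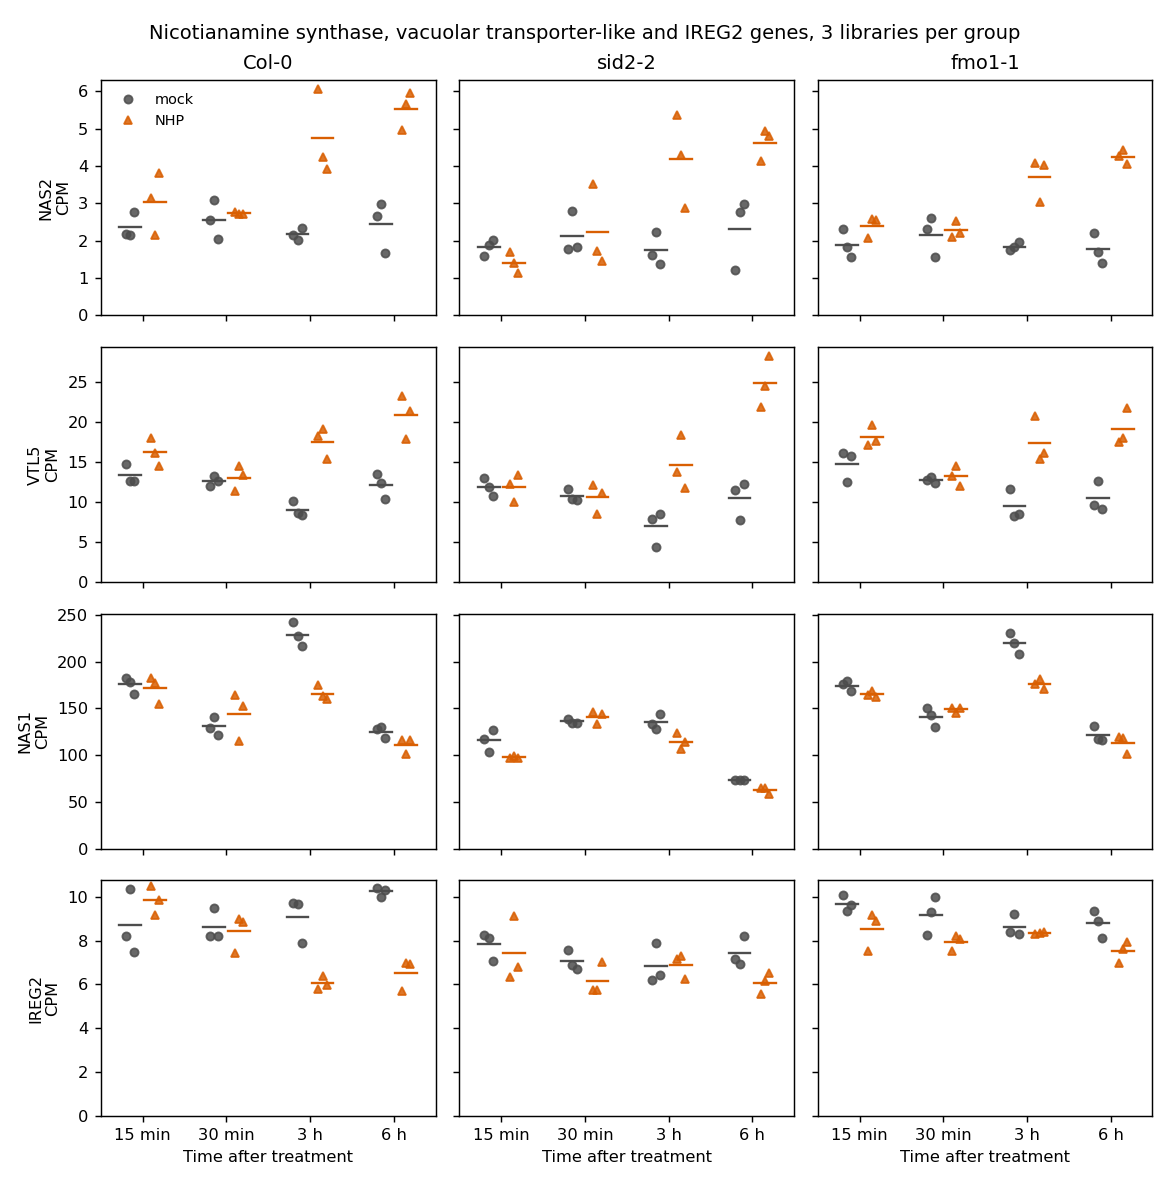
CPM of NAS2, VTL5, NAS1 and IREG2 (rows) in Col-0, sid2-2 and fmo1-1 (columns) by time after treatment. There is 1 point per library for mock and NHP and a line at each group mean. NHP libraries of NAS2 and VTL5 lie above mock libraries at 3 h and 6 h in each genotype, and those of NAS1 below at 3 h.

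The ferritins, plastid proteins that store iron, rose with NHP in sid2-2. FER1 in sid2-2 stood at 154, 139 and 165 CPM with mock and 299.9, 313 and 280.1 CPM with NHP at 6 h, with no overlap (0.96 ± 0.09 (SE), adjusted p = 2.8e-12), a rise that was called in all 8 alternative fits and without any 1 of its 6 libraries. At 3 h FER1 in sid2-2 also rose, from 203, 202 and 207 CPM to 265, 282 and 218 CPM (0.32 ± 0.09 (SE), adjusted p = 0.0087), a call lost without sid2-2 3 h NHP replicate 2 (adjusted p = 0.105). FER3 in sid2-2 at 6 h rose from 117, 114 and 124 CPM to 159, 148 and 140.1 CPM (0.33 ± 0.06 (SE), adjusted p = 0.00016). FER4 rose from 52.6, 46.5 and 54.2 CPM to 62.3, 57.7 and 59 CPM (0.22 ± 0.08 (SE), adjusted p = 0.044), a call lost without sid2-2 6 h mock replicate 1 or 2 or sid2-2 6 h NHP replicate 1, 2 or 3 (adjusted p up to 0.217). All 3 ferritins were thus higher with NHP in sid2-2 at 6 h. Of 5 shoot markers, 3 were called lower there, with a median log2(FC) of -0.49, beside 6.04% of all genes called lower. The summed shoot markers overlapped, at 21530 to 24375 CPM with mock and 21906 to 23468 CPM with NHP. Their part in the ferritin values was not tested.

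In Col-0 at 6 h FER1 stood at 142, 151 and 132 CPM with mock and 152, 172 and 184 CPM with NHP, without overlap and without a call (0.26 ± 0.09 (SE), adjusted p = 0.062). FER4 in Col-0 at 6 h stood at 36.0 to 37.5 CPM with mock and 40.5 to 45.3 CPM with NHP, also without overlap. Of all genes, 12.1% were higher without overlap there. FER3 stood at 77.7 to 88.4 CPM with mock and 84.8 to 96.7 CPM with NHP, with overlap. Neither FER3 nor FER4 was called in Col-0. In fmo1-1 at 6 h FER1 rose from 142, 135 and 136 CPM to 173, 177 and 173 CPM (0.34 ± 0.09 (SE), adjusted p = 0.0097), a call lost without fmo1-1 6 h mock replicate 2 (adjusted p = 0.0543). FER1 in fmo1-1 first fell, at 15 min, from 457, 479 and 534 CPM to 317, 294 and 319 CPM (-0.66 ± 0.09 (SE), adjusted p = 1.4e-07). The Col-0 libraries at 15 min stood at 382, 442 and 391 CPM with mock and 352, 359 and 399 CPM with NHP, with overlap (-0.13 ± 0.09 (SE), adjusted p = 0.57).

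**Figure D5:**
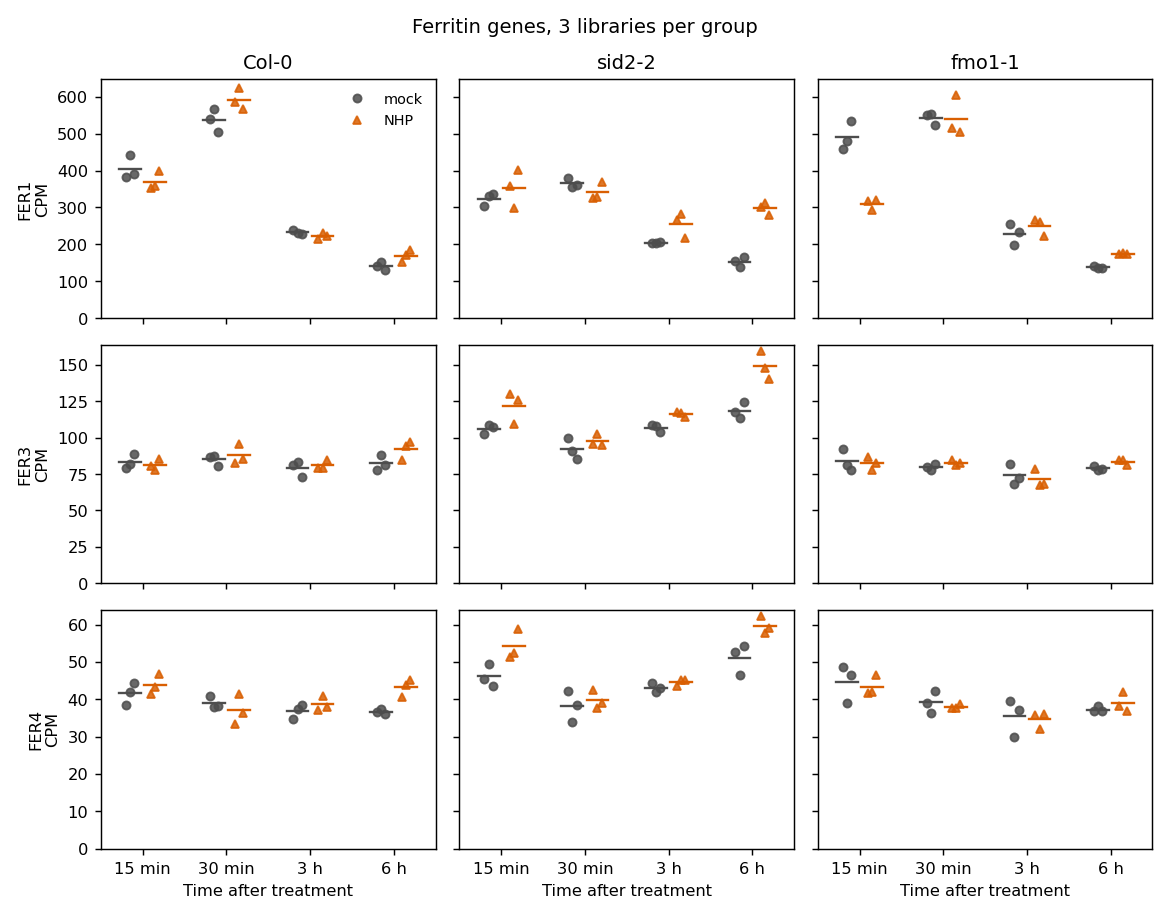
CPM of the ferritins FER1, FER3 and FER4 (rows) in Col-0, sid2-2 and fmo1-1 (columns) by time after treatment, with 1 point per library for mock and NHP and a line at each group mean. In sid2-2 at 6 h the FER1 libraries stand at 139 to 165 CPM with mock and 280.1 to 313 CPM with NHP.

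IREG2, a transporter that moves nickel and other metals into root vacuoles, fell in Col-0. It stood at 9.72, 9.66 and 7.88 CPM with mock and 5.8, 6.37 and 5.96 CPM with NHP at 3 h (-0.58 ± 0.11 (SE), adjusted p = 0.00028). IREG2 at 6 h in Col-0 stood at 10.4, 10 and 10.3 CPM with mock and 5.69, 6.98 and 6.94 CPM with NHP (-0.64 ± 0.11 (SE), adjusted p = 1.9e-05). Neither pair of groups overlapped, and both calls held without any 1 library. In sid2-2 at 3 h IREG2 overlapped, at 6.18, 7.89 and 6.44 CPM with mock and 7.15, 7.28 and 6.26 CPM with NHP (0.01 ± 0.12 (SE), adjusted p = 0.96). At 6 h its groups stood apart without a call in both mutants, at 7.17, 6.92 and 8.21 CPM with mock and 5.55, 6.16 and 6.51 CPM with NHP in sid2-2 (-0.29 ± 0.11 (SE), adjusted p = 0.093) and at 9.35, 8.91 and 8.1 CPM with mock and 6.98, 7.62 and 7.92 CPM with NHP in fmo1-1 (-0.23 ± 0.11 (SE), adjusted p = 0.28). In 6 of the 12 comparisons every IREG2 library with NHP lay below every mock library, beside 8.34% to 15.5% of all genes in a comparison. As the mean over the 4 times IREG2 also fell in fmo1-1 (-0.16 ± 0.05 (SE), adjusted p = 0.037). FRO3, a reductase placed at mitochondria, fell in Col-0 at 6 h from 67.8, 67.7 and 82.3 CPM to 61, 52.2 and 57.3 CPM (-0.35 ± 0.06 (SE), adjusted p = 5.7e-05). FRO3 in sid2-2 at 6 h stood at 44.7, 45.6 and 44.2 CPM with mock and 44, 47.8 and 42.4 CPM with NHP (-0.00 ± 0.07 (SE), adjusted p = 0.99). FRD3, the citrate exporter that keeps iron soluble in the xylem, rose in fmo1-1. It went from 10.9, 10.4 and 12.1 CPM to 17.2, 15.7 and 14.5 CPM at 3 h (0.50 ± 0.12 (SE), adjusted p = 0.0087), a call lost without fmo1-1 3 h mock replicate 1 or 2 or fmo1-1 3 h NHP replicate 1 (adjusted p up to 0.0687). At 6 h FRD3 went from 8.41, 9.62 and 10.5 CPM to 11.4, 12.4 and 14.9 CPM (0.44 ± 0.13 (SE), adjusted p = 0.029), a call lost without fmo1-1 6 h mock replicate 1 or 2 or fmo1-1 6 h NHP replicate 3 (adjusted p up to 0.236).

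F6'H1 makes the precursor of scopoletin, a coumarin from which roots form others that mobilize iron. In fmo1-1 it fell at 30 min from 55.4, 56.7 and 52.8 CPM to 41.2, 41.7 and 41.2 CPM (-0.41 ± 0.09 (SE), adjusted p = 0.0017). At 6 h it rose from 49.2, 45.5 and 53 CPM to 55.9, 64.2 and 63.1 CPM (0.31 ± 0.08 (SE), adjusted p = 0.015), a call lost without fmo1-1 6 h mock replicate 2 or fmo1-1 6 h NHP replicate 2 or 3 (adjusted p up to 0.144). In Col-0 and sid2-2 F6'H1 was not called with NHP. MYB10, a MYB factor of iron deficiency, stayed between 0.146 and 1.35 CPM over 72 libraries and was not called with NHP.

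The 6 h comparisons share a limit of the design. Col-0 mock and NHP libraries at 6 h had 1 batch in common in the setup table, and those of sid2-2 had none. The common batch held 1 Col-0 mock library (replicate 3) and 1 Col-0 NHP library (replicate 1). A fit with a batch term rests for Col-0 on this pair, and for sid2-2 on batch differences among Col-0 NHP libraries. A call kept or lost in such a fit therefore does not tell batch from treatment. With the batch as a term in a fit of the 12 Col-0 and sid2-2 libraries at 6 h, 2 of 7 calls remained in Col-0 (FRO3 and IREG2) and 3 of 9 in sid2-2 (AT1G47395, FER1 and VTL5). For FRO4 the Col-0 value was then -2.25, adjusted p = 0.155, and for NAS2 1.52, adjusted p = 0.0512. VTL5 in Col-0 was then 1.14, adjusted p = 0.119, PYE -0.56, adjusted p = 0.131 and AT1G47395 -1.1, adjusted p = 0.413. In sid2-2 NAS2 was then 0.76, adjusted p = 0.385, FRO4 -1.56, adjusted p = 0.411, AT1G47400 -1.81, adjusted p = 0.113 and OPT3 -0.08, adjusted p = 0.829. FER3 in sid2-2 was 0.18, adjusted p = 0.511 and FER4 0.11, adjusted p = 0.756.

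Without NHP, sid2-2 differed from Col-0 in much of its transcriptome, and the share of iron genes called was close to that of all genes. As the mean over the 4 times, 7 of the 32 genes were higher and 10 lower in sid2-2 mock libraries, beside 57.2% of all genes called. IRT1, the importer, was higher at 30 min (1.93 ± 0.56 (SE), adjusted p = 0.0076) and most of all at 3 h, with 0.274, 0.849 and 0.199 CPM in Col-0 and 15.3, 9.05 and 7.96 CPM in sid2-2 (4.36 ± 0.67 (SE), adjusted p = 6.7e-07). FRO2 at 3 h stood at 1.28, 1.54 and 1.35 CPM in Col-0 and 2.85, 2.85 and 2.49 CPM in sid2-2 (0.93 ± 0.24 (SE), adjusted p = 0.0011). Neither gene overlapped between genotypes at 3 h. COPT2 at 30 min stood at 3.51, 4.24 and 4.59 CPM in Col-0 and 19.3, 18.8 and 12 CPM in sid2-2 (2.00 ± 0.34 (SE), adjusted p = 1.1e-05), and FRO5 was higher there too (1.84 ± 0.54 (SE), adjusted p = 0.009), a call lost without Col-0 30 min mock replicate 1 (adjusted p = 0.0593). bHLH38 was called higher in sid2-2 at 30 min with libraries that overlapped (1.20 ± 0.46 (SE), adjusted p = 0.048), a call lost without Col-0 30 min mock replicate 1 or 2 or sid2-2 30 min mock replicate 1 or 2 (adjusted p up to 0.189) and with DESeq2 on 72 libraries (adjusted p = 0.0975). Of the other copper genes at 30 min, FSD1, the iron superoxide dismutase, was higher in sid2-2 (1.80), and CSD1 (-1.14), CSD2 (-1.48) and CCS (-1.15) were lower, with adjusted p from 1.6e-05 to 0.00021. IRT1 at 30 min was not called by DESeq2 on 72 libraries (adjusted p = 0.07).

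AT2G30766, PYE and BTS were lower in sid2-2 than in Col-0 mock libraries at 6 h. AT2G30766 stood at 7.03, 5.57 and 7.46 CPM in Col-0 and 0.852, 1.27 and 0.788 CPM in sid2-2 (-2.69 ± 0.28 (SE), adjusted p = 1.1e-11). PYE stood at 11.3, 9.97 and 13.8 CPM in Col-0 and 5.6, 5.92 and 5.64 CPM in sid2-2 (-1.02 ± 0.12 (SE), adjusted p = 1.3e-10). BTS stood at 85.9, 86 and 101 CPM in Col-0 and 53.5, 49.1 and 48.3 CPM in sid2-2 (-0.86 ± 0.07 (SE), adjusted p = 2.3e-15). None of these 3 genes overlapped between the genotypes at 6 h. FRO3 (-0.70 ± 0.07 (SE)), AT1G47400 (-1.36 ± 0.36 (SE)), AT1G47395 (-0.96 ± 0.32 (SE)) and OPT3 (-0.50 ± 0.10 (SE)) were lower at 6 h as well, with adjusted p from 2.1e-13 to 0.017, and the call of AT1G47395 was lost without Col-0 6 h mock replicate 1 or sid2-2 6 h mock replicate 1 or 3 (adjusted p up to 0.141). bHLH104 was lower by a small amount at 6 h, 3 h and 15 min (-0.19 at each), and ILR3 was higher as the mean (0.06 ± 0.02 (SE), adjusted p = 0.018). Leaving out 1 library ended the bHLH104 call in 1 of 6 fits at 15 min and in 2 of 6 at 3 h and at 6 h, and the ILR3 call in 9 of 24.

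Transport and storage genes also differed. NAS1 was lower in sid2-2 at 15 min (-0.60 ± 0.08 (SE), adjusted p = 1.9e-08), at 3 h (-0.76 ± 0.08 (SE), adjusted p = 7.7e-12) and at 6 h, where it stood at 128, 129.6 and 118 CPM in Col-0 and 74, 73.5 and 73.2 CPM in sid2-2. FER3 was higher in sid2-2 at each time but 30 min, at 6 h with 77.7, 88.4 and 81.4 CPM in Col-0 and 117, 114 and 124 CPM in sid2-2 (0.52 ± 0.07 (SE), adjusted p = 2e-09). FER1 was lower at 15 min (-0.33 ± 0.09 (SE), adjusted p = 0.0026) and at 30 min (-0.56 ± 0.09 (SE), adjusted p = 1.3e-06). FER4 was higher at 3 h, a call lost without Col-0 3 h mock replicate 1 or sid2-2 3 h mock replicate 1 (adjusted p up to 0.108), and at 6 h (0.48 ± 0.08 (SE), adjusted p = 1.4e-06), and IREG2 was lower at both times (-0.46 ± 0.11 (SE), adjusted p = 0.00071). VTL5 and FRD3 were lower as the mean over the times (-0.24 and -0.17), and the VTL5 call was lost without sid2-2 3 h mock replicate 2 (adjusted p = 0.0517).

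Markers of organs moved with the genotype. In sid2-2 mock libraries 5 to 8 of 10 root markers and 6 to 8 of 9 root hair markers were called lower at each time, with median log2(FC) from -0.64 to -0.54 for root markers. Shoot markers were called higher in 4 or 5 of 5, with medians from 0.41 to 0.75. Of all genes, 12.3% to 16.4% were called lower and 13.3% to 20.2% higher at each time. The summed root markers at 6 h were 103 to 109 CPM in Col-0 and 77.1 to 85 CPM in sid2-2. Their part in the differences of the iron genes was not tested. Plates held 1 genotype each, so plate and genotype cannot be told apart, and Col-0 and sid2-2 mock libraries had no batch in common at 30 min and 3 h. In fmo1-1 mock libraries NRAMP1 was the only iron gene called, higher at 15 min (0.27 ± 0.06 (SE), adjusted p = 0.028) with 53.4, 56.7 and 53.9 CPM in Col-0 and 65.1, 61.7 and 70.7 CPM in fmo1-1, beside 0.561% of all genes. That call was lost without Col-0 15 min mock replicate 1 or 3 or fmo1-1 15 min mock replicate 3 (adjusted p up to 0.278) and with a replicate block (adjusted p = 0.0784), and as the mean over the 4 times NRAMP1 was higher by 0.13 ± 0.03 (SE), adjusted p = 0.008.

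Iron genes also changed over the hours after the mock treatment. Per the study's methods, the medium was replaced with fresh medium before treatment and seedlings grew in a light and dark cycle. Time after mock, time since fresh medium and time of day cannot be told apart here. In Col-0 mock libraries 7 of the 32 genes were higher at 6 h than at 15 min and 9 lower, beside 37.2% of all genes called. PYE, BTS, OPT3, FRO3 and the 3 short genes were the higher ones. PYE went from 5.18, 4.84 and 4.91 CPM to 11.3, 9.97 and 13.8 CPM (1.22 ± 0.12 (SE), adjusted p = 1.6e-13). AT1G47400 went from 0.339, 0.0794 and 0.523 CPM to 1.9, 1.81 and 1.91 CPM (2.30 ± 0.39 (SE), adjusted p = 1.8e-06). AT1G47395 rose by 2.15 ± 0.36 (SE) and AT2G30766 by 2.03 ± 0.26 (SE). OPT3 went from 125, 105 and 121 CPM to 201, 208 and 224 CPM (0.85 ± 0.10 (SE), adjusted p = 5.5e-10), and BTS (0.50 ± 0.07 (SE)) and FRO3 (0.31 ± 0.06 (SE)) rose less. FER1 fell from 382, 442 and 391 CPM to 142, 151 and 132 CPM (-1.52 ± 0.09 (SE), adjusted p = 3.1e-21). VTL1 (-1.29), VTL2 (-1.45), IRT1 (-2.63), FRO5 (-1.46), bHLH39 (-1.19), FRD3 (-0.62), NAS1 (-0.49) and bHLH34 (-0.31) were the others that fell. The fall of FRO5 was lost without Col-0 15 min mock replicate 1 or 2 or Col-0 6 h mock replicate 1 (adjusted p up to 0.209) and with DESeq2 on 72 libraries (adjusted p = 0.068), that of bHLH39 without Col-0 6 h mock replicate 1 (adjusted p = 0.06) and that of bHLH34 without Col-0 15 min mock replicate 1 (adjusted p = 0.0501).

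In sid2-2 mock libraries 6 genes were higher and 9 lower at 6 h, beside 36.6% of all genes, and in fmo1-1 8 were higher and 12 lower, beside 35.5%. PYE rose by 0.39 ± 0.13 (SE) in sid2-2 and by 0.99 ± 0.12 (SE) in fmo1-1, and the sid2-2 call was lost without sid2-2 15 min mock replicate 3 or sid2-2 6 h mock replicate 2 (adjusted p up to 0.167). FER1 fell in both, by 1.08 ± 0.09 (SE) and by 1.83 ± 0.09 (SE). Without sid2-2 6 h mock replicate 2 the higher genes in sid2-2 were 1, and without sid2-2 15 min mock replicate 1 they were 3. In the setup table the mock libraries at 15 min share no batch with those at 6 h in Col-0 or sid2-2, so time and batch cannot be told apart. Whether the courses over time differ between genotypes was not tested. All times after 15 min were compared with the same 15 min libraries. Shoot markers fell over the same hours, 4 or 5 of 5 at 6 h with medians from -1.57 to -1.21, beside 17.8% to 19.2% of all genes called lower. Their part in these values was not tested.

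Of the 7 genes higher at 6 h than at 15 min in Col-0 mock libraries, only BTS and OPT3 have CACGTG just before their annotated starts. CACGTG, the G-box that bHLH and bZIP factors can bind, was searched on both strands in the 250 bases upstream of each start in TAIR10.1 (RefSeq). It was present for 6 of the 37 iron genes (bHLH38, bHLH100, BTS, OPT3, FER3 and FER4) and for 6.49% of 27443 genes. PYE, FRO3 and the 3 short genes, which rose in the same Col-0 comparison, had 0 matches. bHLH38, FER3 and FER4 have the motif and were not called higher in that comparison, and bHLH100 was not tested. The windows of BTS (chr3:6273716-6273965, plus strand, 3 matches) and OPT3 (chr4:9250344-9250593, minus strand, 1 match) are shown with the motif in capitals.
BTS: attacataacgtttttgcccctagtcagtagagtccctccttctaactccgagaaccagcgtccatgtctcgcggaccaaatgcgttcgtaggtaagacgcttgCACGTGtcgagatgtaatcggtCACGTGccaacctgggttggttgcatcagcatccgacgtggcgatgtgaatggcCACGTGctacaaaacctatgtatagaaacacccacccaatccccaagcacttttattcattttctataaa
OPT3: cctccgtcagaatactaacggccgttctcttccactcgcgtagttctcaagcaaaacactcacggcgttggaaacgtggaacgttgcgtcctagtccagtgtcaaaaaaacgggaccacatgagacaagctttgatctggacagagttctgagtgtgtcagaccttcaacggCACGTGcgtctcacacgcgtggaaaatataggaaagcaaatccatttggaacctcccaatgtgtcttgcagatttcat
GTAC, the core bound by the copper regulator SPL7, was in the windows of 16 of the 37 genes and of 34.3% of all genes, but not in those of FRO4, FRO5 or COPT2. TTGAC, the core of the W-box bound by WRKY factors, was in 16 of 37 and in 44.9% of all. A match describes the sequence and says nothing of binding.

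The NHP response itself differed between genotypes for some iron genes. Between sid2-2 and Col-0, 4 genes differed at 1 or more times, beside 3.35% of all genes, and between fmo1-1 and Col-0 2 did, beside 0.185%. FER1 rose more in sid2-2 at 6 h, by 0.70 ± 0.12 (SE), adjusted p = 0.0017 on the log2 scale, and this difference was called without any 1 of its libraries. FRO3 differed at 6 h (0.35 ± 0.09 (SE), adjusted p = 0.038), with the fall present in Col-0 and not called in sid2-2, and was lost in 7 of the 12 fits that left out 1 library. FRO2 differed at 30 min (-1.61 ± 0.37 (SE), adjusted p = 0.025) and at 3 h (-1.32 ± 0.37 (SE), adjusted p = 0.041), lower with NHP in sid2-2, calls lost in 8 and in 10 of 12 such fits. Without the library with conflicting time labels the 30 min difference of FRO2 was -1.38 (adjusted p = 0.162). IREG2 differed at 3 h (0.60 ± 0.16 (SE), adjusted p = 0.037), with the fall in Col-0, and was lost in 8 of 12 such fits and with the 48 libraries of Col-0 and sid2-2 (adjusted p = 0.0586). In fmo1-1 the response at 15 min differed for IRT1 (5.02 ± 1.12 (SE), adjusted p = 0.032) and FER1 (-0.53 ± 0.12 (SE), adjusted p = 0.035). They were lost in 8 and in 7 of 12 such fits, and FER1 also with a replicate block (adjusted p = 0.0713). None of the iron genes differed in fmo1-1 without Col-0 15 min mock replicate 1, Col-0 15 min NHP replicate 3, fmo1-1 15 min mock replicate 2 or 3 or fmo1-1 15 min NHP replicate 2, by edgeR with 0 genes called in each of these 5 fits.

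Iron genes outside the list were described from a second list of 41, of which 37 were tested. In Col-0 with NHP, 5, 2, 5 and 8 of them were called from the earliest to the latest time, and 11 at 1 or more times, beside 2.71%, 2.02%, 3.86% and 6.82% of all genes and, at 1 or more times, 5.08% higher and 5.51% lower. In sid2-2 and fmo1-1, 10 and 14 were called at 1 or more times. Of all genes, 11.1% were then called higher and 12.6% lower in sid2-2, and 5.32% and 5.83% in fmo1-1. IRT2, a close relative and neighbour of IRT1, fell in Col-0 at 30 min (-1.16), 3 h (-1.06) and 6 h (-1.38), with adjusted p of at most 3e-05. AHA7, a proton pump of the root epidermis, fell at 30 min (-1.07) and 3 h (-1.05), with adjusted p of at most 8.9e-11. In fmo1-1 IRT2 fell at 15 min (-1.06), 30 min (-1.08) and 6 h (-1.05), and YSL2, a transporter of metal bound to nicotianamine, fell at 15 min (-1.12). AT4G37850 (bHLH25) fell in sid2-2 at 3 h (-1.09, adjusted p = 0.034) and 6 h (-1.22, adjusted p = 0.014), and AT2G22760 (bHLH19) rose in fmo1-1 at 15 min (1.63, adjusted p = 0.037). Leaving out 1 library ended the calls of AT4G37850 in 4 of 6 fits at 3 h and 2 of 6 at 6 h, and that of AT2G22760 in 4 of 6, while those of IRT2, AHA7 and YSL2 held in each fit. Over all 12 comparisons the second list had 2 to 8 calls of 37, beside 1.85% to 13% of all genes.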

How the data were processed

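RNA of 72 Arabidopsis libraries was poly(A)-selected and sequenced as paired reads (NEBNext Ultra II kit, NovaSeq). Per the study's methods and processing notes, reads were checked with FastQC, trimmed and mapped to TAIR10 in CLC Genomics Workbench. The deposited values are raw read counts per gene, made by the authors, with no normalization. For the annotation, strand and reads with several positions, the settings were not given in the sources used here. The table held 0 columns of other samples and 0 rows that name no gene.

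Counts were tested with edgeR 4.0.16 (limma 3.58.1, R 4.3.3): TMM scaling, filterByExpr (minimum count 10, total 15), 24 groups with 1 coefficient each, and a robust quasi-likelihood fit with a prior count of 2 and 48 residual degrees of freedom. P-values were adjusted by Benjamini-Hochberg over 21042 genes. SE is the absolute log2(FC) divided by the square root of F. Assigned reads per library ranged from 19618319 to 28382977. Replicate libraries differed by more than counting noise (chi-square per degree of freedom 2.57 to 14.5 over 72 pairs), so none was counted as a repeat. They are wells of pooled seedlings, and p-values measure the spread between these wells. The test was checked on simulated counts for NHP against mock in Col-0 at 6 h, with 20793 genes: 75% of 100 genes changed 1.5-fold and 90% of 100 genes changed 2-fold were called, with 3 false calls. The simulated spread followed the fitted trend, without extra spread of single genes, and changed genes had a mean count of at least 10. These shares may not hold for genes with fewer reads or more spread between libraries.

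Alternatives were DESeq2 1.42.0 on 72 libraries and on the 6 libraries of a comparison, RLE scaling, no filter, 48 libraries, a replicate block, a batch term at 6 h and each library left out in turn. Members and lists were chosen with earlier results of these data known. All 37 members are named. Values per library are given for called members, beginning with the largest change of a role group, and for FIT, IRT1, the Ib bHLH genes and the 3 short genes. Genes of the second iron list and the other copper genes are named where called with NHP at an absolute log2(FC) of at least 1. Between genotypes and over time only some calls of that size are named. Of the sequences, all come from RefSeq TAIR10.1 and were read with Biopython 1.88 under Python 3.11.15. Figures were drawn with matplotlib 3.10.9.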

Additional observations from a re-analysis of the deposited data

Results flagged for a closer look

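The NHP response differed from that of Col-0 in 8 comparisons of single iron genes, each tested in edgeR as the difference of both responses, with p adjusted over all genes. No group was large enough for a search for single outlying libraries, since each held 3.

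FER1 rose more in sid2-2 than in Col-0 at 6 h, by 0.70 ± 0.12 (SE), adjusted p = 0.0017, and leaving out any 1 of the 12 libraries kept the call (adjusted p up to 0.0105). Over the mean of the 4 times the difference for FER1 was 0.28 ± 0.06 (SE), adjusted p = 0.032, lost without Col-0 15 min mock replicate 2 or sid2-2 15 min NHP replicate 3 or sid2-2 30 min NHP replicate 3 or sid2-2 3 h NHP replicate 2 (adjusted p up to 0.058) and with a replicate block (adjusted p = 0.0576). In fmo1-1 FER1 differed the other way at 15 min, by -0.53 ± 0.12 (SE), adjusted p = 0.035, a call lost without Col-0 15 min mock replicate 1 or 3 or Col-0 15 min NHP replicate 3 or fmo1-1 15 min mock replicate 2 or 3 or fmo1-1 15 min NHP replicate 1 or 2 (adjusted p up to 0.179) and with a replicate block (adjusted p = 0.0713).

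FRO2 differed in sid2-2 at 30 min by -1.61 ± 0.37 (SE), adjusted p = 0.025. Without the library with conflicting time labels the 30 min difference was -1.38, adjusted p = 0.162. The call was lost without Col-0 30 min mock replicate 1 or 2 or Col-0 30 min NHP replicate 1 or 2 or sid2-2 30 min mock replicate 1 or 3 or sid2-2 30 min NHP replicate 2 or 3 (adjusted p up to 0.162). At 3 h FRO2 differed by -1.32 ± 0.37 (SE), adjusted p = 0.041, lost without Col-0 3 h mock replicate 1, 2 or 3 or Col-0 3 h NHP replicate 1 or 2 or sid2-2 3 h mock replicate 1 or 2 or sid2-2 3 h NHP replicate 1, 2 or 3 (adjusted p up to 0.125). IREG2 in sid2-2 at 3 h differed by 0.60 ± 0.16 (SE), adjusted p = 0.037, lost without Col-0 3 h mock replicate 1 or 2 or Col-0 3 h NHP replicate 1 or 3 or sid2-2 3 h mock replicate 1 or 3 or sid2-2 3 h NHP replicate 1 or 2 (adjusted p up to 0.131) and with the 48 libraries of Col-0 and sid2-2 alone (adjusted p = 0.0586). FRO3 in sid2-2 at 6 h differed by 0.35 ± 0.09 (SE), adjusted p = 0.038, lost without Col-0 6 h mock replicate 3 or Col-0 6 h NHP replicate 2 or 3 or sid2-2 6 h mock replicate 1, 2 or 3 or sid2-2 6 h NHP replicate 2 (adjusted p up to 0.192). IRT1 in fmo1-1 at 15 min differed by 5.02 ± 1.12 (SE), adjusted p = 0.032, with a fall in Col-0 and no call in fmo1-1, and was lost without Col-0 15 min mock replicate 1 or 2 or Col-0 15 min NHP replicate 1, 2 or 3 or fmo1-1 15 min mock replicate 2 or 3 or fmo1-1 15 min NHP replicate 2 (adjusted p up to 0.304).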

How the results depend on the processing

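No called value changed its direction under any alternative. Of 226 calls of single iron genes over all contrasts, 195 were kept in every alternative fit, 149 without any 1 library and 142 in both. By setting, calls kept were 214 of 224 with DESeq2 on 72 libraries, 45 of 49 with DESeq2 on the 6 libraries, 220 of 226 with RLE scaling, 217 of 226 without a filter, 151 of 162 with the 48 libraries of Col-0 and sid2-2, 214 of 226 with a replicate block, 5 of 16 with the batch term and 16 of 16 in the same 12 libraries without it. Over the fits that left out 1 library, 1965 of 2250 calls were kept.

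The number of iron genes higher with NHP at 1 or more times in Col-0 was 2, and it was 4 with the 48 libraries of Col-0 and sid2-2, with DESeq2 on 72 libraries and with DESeq2 on the 6 libraries. Calls at 6 h in Col-0 went from 7 to 2 with the batch term and to 11 in the same 12 libraries without it, a fit chosen after seeing the data. In sid2-2 they went from 9 to 3 with the batch term. In these 12 libraries no batch held both treatments of sid2-2, and 1 batch held both of Col-0, with 1 library of each. Leaving out 1 library in turn moved the genes higher with NHP at 1 or more times from 2 to between 2 and 4 in Col-0 (4 without Col-0 6 h NHP replicate 1) and from 7 to between 4 and 8 in fmo1-1 (4 without fmo1-1 6 h mock replicate 2). Genes lower in fmo1-1 mock libraries as the mean over times were 0 to 1 (1 without fmo1-1 15 min mock replicate 1). Genes whose response differed in fmo1-1 were 0 to 3 beside 2, and genes higher at 6 h than at 15 min in sid2-2 mock libraries 1 to 5 beside 6. The cause was not tested.

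Replicate numbers did not pair the libraries: of 36 pairs of deviations from the group means, 3 correlated above 0.1 (r from -0.10 to 0.17), and 16 of 36 libraries correlated best with their own number. With a replicate block the genes whose response differed in fmo1-1 went from 2 to 1. Genes under a few reads per library, such as bHLH38, IRT1 at 6 h and the 5 untested genes, limit what a difference can show at this depth.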

Other observations

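Several iron genes of the second list differed between Col-0 and sid2-2 mock libraries at 6 h. FRO6 and FRO7, ferric reductases of the leaf cell surface and the chloroplast, were higher in sid2-2 by 1.69 and 1.07 on the log2 scale, and the nicotianamine synthase NAS3 by 1.97. ZIF1, which moves nicotianamine into vacuoles, differed by -1.21 and ORG1, a protein kinase gene, by -1.42. Each of these 5 differences was called by edgeR without any 1 of its 6 libraries. Shoot markers were higher in sid2-2 at the same time, and their part in these values was not tested. Over the mock course of Col-0, FRO6 (-3.90), FRO7 (-2.68) and NAS3 (-3.55) were lower at 6 h than at 15 min and ORG1 (1.02) was higher.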
